A study of Mus musculus with 4 samples.

Results

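The 10 contractile genes of smooth muscle and myoepithelial cells measured here in cervical samples of mice were *Acta2*, *Actg2*, *Tagln*, *Cnn1*, *Lmod1*, *Myh11*, *Myl9*, *Mylk*, *Des* and *Oxtr*. They were chosen by gene symbol, and all 10 were found among the 38087 genes of the deposited table. The Becn1-M-KO group (KO below) comprised 2 libraries from C57BL/6 mice with a myeloid deletion of *Becn1* (Beclin-1, needed to start autophagy), and the series describes these samples as B cell lymphomas. The WT group comprised 2 libraries from wild-type C57BL/6 mice, described as cervical lymph node controls. All mice were at postnatal week 20, and every sample carries the tissue label cervical lymph node. The promoter that drives the deletion is not given in the sources used here. Genotype and tumour cannot be told apart in this design. The labels do not state whether the libraries of a group are from different mice. The p-values therefore reflect library-to-library spread only, part or all of which may be technical.

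Smooth muscle cells contract when calcium and calmodulin activate myosin light chain kinase, which phosphorylates the regulatory light chain and lets myosin pull on actin filaments. Myoepithelial cells are epithelial cells that wrap the acini and ducts of salivary, lacrimal and mammary glands, carry the same contractile proteins and squeeze out secretion. In lymph nodes, contractile proteins are found in the muscle coat of arterioles and collecting lymphatics, and alpha smooth muscle actin is also found in reticular stromal cells and pericytes. Many of these genes are driven by serum response factor (SRF) and its cofactor myocardin, which act through a short DNA element, the CArG box.

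Promoters are shown for *Acta2*, *Cnn1* and *Myl9*, which fell in KO, and for *Des*, which did not. The sequences are from RefSeq on GRCm38.p6 and run 5′ to 3′ from 250 bases before to 50 bases after the annotated start. Capitals mark a CArG box, or a box with 1 C or G in its 6-base A and T core. RefSeq promoter windows were matched for 7 members, and *Actg2*, *Myh11* and *Tagln* were not matched.
*Acta2* promoter, chr19:34255324-34255623, minus strand: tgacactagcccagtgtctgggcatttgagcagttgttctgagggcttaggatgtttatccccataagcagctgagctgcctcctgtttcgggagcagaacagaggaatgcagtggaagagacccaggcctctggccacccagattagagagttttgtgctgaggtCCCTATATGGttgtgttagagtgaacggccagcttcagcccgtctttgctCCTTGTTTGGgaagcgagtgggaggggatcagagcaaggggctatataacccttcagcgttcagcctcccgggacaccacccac
*Cnn1* promoter, chr9:22099003-22099302, plus strand: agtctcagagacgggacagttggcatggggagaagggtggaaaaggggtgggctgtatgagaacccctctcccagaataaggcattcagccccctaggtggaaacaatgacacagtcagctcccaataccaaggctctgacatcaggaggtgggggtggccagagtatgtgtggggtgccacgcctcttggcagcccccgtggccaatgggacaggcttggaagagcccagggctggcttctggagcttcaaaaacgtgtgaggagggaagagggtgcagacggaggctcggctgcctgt
*Myl9* promoter, chr2:156775214-156775513, plus strand: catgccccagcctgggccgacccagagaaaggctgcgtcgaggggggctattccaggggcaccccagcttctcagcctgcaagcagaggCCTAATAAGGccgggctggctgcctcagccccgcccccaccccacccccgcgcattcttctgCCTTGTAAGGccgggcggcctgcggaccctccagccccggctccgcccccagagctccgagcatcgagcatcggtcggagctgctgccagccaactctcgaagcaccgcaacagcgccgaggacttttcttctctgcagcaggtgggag
*Des* promoter, chr1:75360042-75360341, plus strand: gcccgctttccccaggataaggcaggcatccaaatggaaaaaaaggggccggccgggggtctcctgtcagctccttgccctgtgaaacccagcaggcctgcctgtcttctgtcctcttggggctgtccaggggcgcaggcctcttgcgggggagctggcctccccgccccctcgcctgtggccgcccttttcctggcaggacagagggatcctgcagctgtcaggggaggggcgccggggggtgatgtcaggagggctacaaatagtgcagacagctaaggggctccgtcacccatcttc
The *Myl9* window held 1 exact box, CCTAATAAGG, that begins 161 bases upstream of the start, and a second one with 1 C or G in the core, CCTTGTAAGG, at 99 bases. In the *Acta2* window there were 2 boxes with 1 C or G in the core, CCCTATATGG at 84 bases and CCTTGTTTGG at 34 bases. No match was found in the windows of *Cnn1*, *Des*, *Mylk*, *Lmod1* and *Oxtr*, which says only that these letters are not in those 300 bases. The *Mylk* window, from 34784700 to 34784999, lies inside the span of the gene, which begins at 34745210. The sequence at the start of that span was not read. An exact box is present in 1.63% of 32851 RefSeq promoter windows and a box with at most 1 C or G in the core in 9.98% (the motif reads the same way on both strands).

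Total RNA without ribosomal RNA was read by Ion Torrent sequencing, with 15604247 to 20067004 counted reads per library. *Becn1* stood at 49.5 and 53.3 CPM (reads scaled to library size) in KO and 54.8 and 63.4 CPM in WT (log2 fold change −0.20, SE 0.21, edgeR adjusted p = 0.557), a whole-tissue level that does not check a myeloid deletion. The WT libraries differed from each other. The summed level of 10 T cell markers was 606 and 586 CPM (of all reads in the library) in KO, against 5.7 in WT replicate 1 and 735 in WT replicate 2. In WT replicate 1 the salivary gene *Spt1* took 32.0% of the reads, and lymphocyte markers were nearly absent for a sample labelled a node. Gland genes were also high in WT replicate 2, where *Dcpp2* led with 5.76% of the reads. *Spt1* was also present in KO, unevenly, at 87.3 and 3370 CPM of the library total, against 320000 and 5450 CPM in WT. The 17 genes over 1% of the reads in any library took 3.82% and 4.15% in KO, against 56.0% and 19.9% in WT. *Xist*, expressed in female cells, had 3 and 34 reads in KO, against 2088 and 5314 in WT, so sex went with genotype. For these reasons the KO libraries were compared with both WT libraries together and with each WT library alone.

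Contractile genes were mostly lower in KO. On TMM-scaled CPM, both KO libraries lay below both WT libraries for 8 of the 9 tested members, an arrangement that 33.3% of all 20695 tested genes showed. In the test of all 4 libraries, 5 members fell (*Acta2*, *Actg2*, *Cnn1*, *Myh11* and *Myl9*) and 0 rose, where 2.18% of all tested genes were called lower and 1.04% higher. The median log2 fold change was −2.85 over the 9 tested members and 0.01 over all tested genes. Against WT replicate 1 alone 8 of 9 members fell and 1 rose, where 32.5% and 32.3% of tested genes were called lower and higher. Against WT replicate 2 alone the counts were again 8 and 1, where 22.8% and 20.9% were called. These 2 comparisons share the KO libraries, and each assumes that its single WT library varies like the KO pair. The WT pair was less alike: log2 CPM correlated at 0.857 between the WT libraries and at 0.988 between the KO libraries. Calls against 1 WT library therefore rest on the spread of the KO pair alone. With library totals in place of TMM scaling, 2608 genes were called lower and 15091 higher against WT replicate 1, where TMM gave 6922 and 6887. Against WT replicate 2 these counts were 4221 and 5883, where TMM gave 4988 and 4573. With both WT libraries, 0 members passed with library totals or without either KO library, and 9 passed without either WT library. Bulk RNA cannot tell fewer cells of a type from less RNA per cell.

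**Figure D1:**
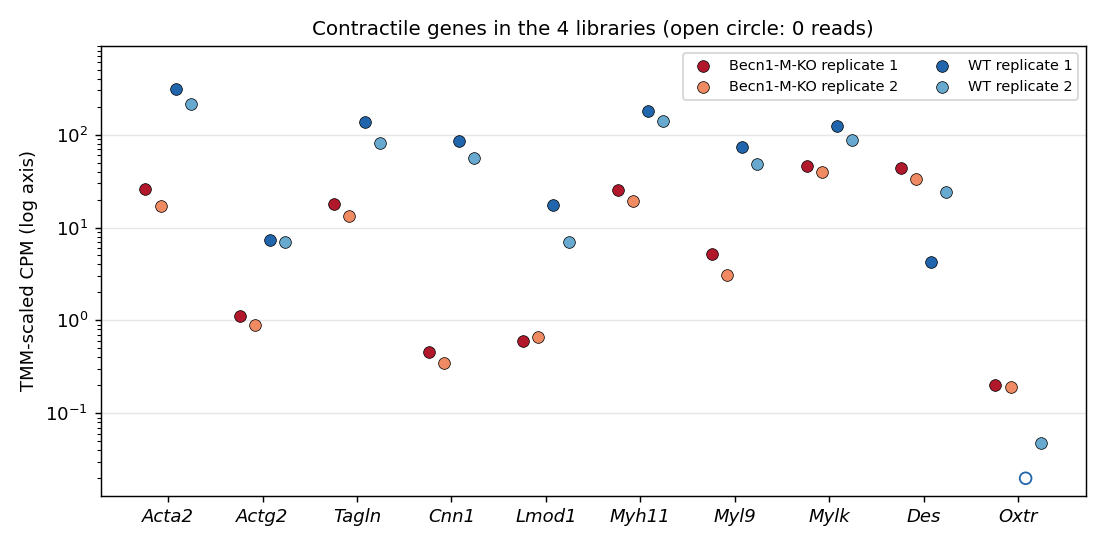
TMM-scaled CPM (log axis) of the 10 contractile genes in each library, with the KO libraries to the left of the WT libraries and 1 point per library. Both KO points lie under both WT points for the genes from *Acta2* to *Mylk*, and above them for *Des* and *Oxtr*, where *Oxtr* rests on at most 5 reads per library.

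The thin filament genes come first. *Acta2*, which encodes alpha smooth muscle actin, lies on chromosome 19 from 34241090 to 34255336 (mm10, minus strand). It stood at 26.2 and 17.2 CPM in KO, against 310 and 211 CPM in WT. Each WT library was far above each KO library, and the spread within either pair was small beside the gap. The level was 21.7 ± 6.38 CPM in KO and 260 ± 70.2 CPM in WT (SD, n = 2 each), 12-fold lower in KO by the fit (log2 fold change −3.59, SE 0.41, edgeR adjusted p = 0.0473). *Actg2*, the gamma actin of enteric smooth muscle (chromosome 6, 83512905 to 83536265, minus strand), had 22 and 23 reads in KO, against 60 and 148 reads in WT. Scaled, these were 1.11 and 0.886 CPM in KO and 7.25 and 7.06 CPM in WT, so the WT libraries did not overlap the KO pair. The closeness of the WT values rests on the TMM factors, since by library total they were 3.72 and 8.28 CPM. Its log2 fold change was −2.84 (SE 0.33, edgeR adjusted p = 0.0475).

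Actin-binding proteins of the thin filament held the largest and some of the less certain differences. *Cnn1* encodes calponin, which binds actin and restrains the myosin motor in differentiated smooth muscle, and lies on chromosome 9 from 22099281 to 22109630 (plus strand). It had 9 reads in each KO library, against 714 and 1163 reads in WT. Of the library total these were 0.577 (95% exact Poisson interval 0.264 to 1.09) and 0.448 CPM (0.205 to 0.851) in KO, and 44.2 and 65.1 CPM in WT. The 2 groups were further apart than for any other tested member, and the fitted level was 176-fold lower in KO (log2 fold change −7.46, SE 0.42, edgeR adjusted p = 0.037). Against WT replicate 1 and WT replicate 2 alone the log2 fold changes were −7.77 and −7.12.

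*Tagln* encodes transgelin (SM22), an actin-bundling protein of early and mature smooth muscle (chromosome 9, 45929628 to 45936058, minus strand). It stood at 17.7 and 13.3 CPM in KO, against 136 and 81.3 CPM in WT. The pairs did not overlap, but the WT libraries differed from each other, and the value of −2.81 on the log2 scale (SE 0.38) was not called (edgeR adjusted p = 0.0512). *Lmod1* encodes leiomodin, which nucleates actin filaments in smooth muscle (chromosome 1, 135324807 to 135368065, plus strand). It had 12 and 17 reads in KO and 145 reads in each WT library. The log2 value of −4.25 (SE 0.63) was not called either with both WT libraries (edgeR adjusted p = 0.0562). Both genes fell against each WT library alone. *Tagln* had log2 fold changes of −3.16 against WT replicate 1 and −2.4 against WT replicate 2, and *Lmod1* had −4.79 and −3.43.

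Both myosin subunit genes fell, and their kinase had a smaller negative value. *Myh11*, the smooth muscle myosin heavy chain gene (chromosome 16, 14194527 to 14291408, minus strand), stood at 25.5 and 19.1 CPM in KO, against 181 and 140 CPM in WT. The pairs were well apart (22.3 ± 4.51 CPM in KO and 161 ± 29.0 CPM in WT, SD, n = 2 each), with a log2 fold change of −2.85 (SE 0.31, edgeR adjusted p = 0.0456). *Myl9*, which encodes the regulatory light chain, is on chromosome 2 from 156775420 to 156781658 (plus strand). It stood at 5.13 and 3.12 CPM in KO, against 72.9 and 47.8 CPM in WT. Its log2 fold change was −3.87 (SE 0.42, edgeR adjusted p = 0.0456), and −4.19 and −3.56 against WT replicates 1 and 2 alone.

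*Mylk* encodes myosin light chain kinase, with a longer non-muscle form made from the same gene in endothelium and other cells (chromosome 16, 34745210 to 35002420, plus strand). It stood at 46.2 and 39.4 CPM in KO, against 123 and 87.3 CPM in WT. The KO libraries were lower, but by a smaller step than for the other members with negative values. The log2 fold change was −1.30 (SE 0.28, edgeR adjusted p = 0.0896) with both WT libraries, −1.55 against WT replicate 1 and −1.03 against WT replicate 2. With library totals in place of TMM scaling, the value against WT replicate 1 was −0.21 (edgeR adjusted p = 0.108), so this call depended on the scaling.

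*Des* went the other way. It encodes desmin, the intermediate filament protein of smooth, skeletal and cardiac muscle, and lies on chromosome 1 from 75360329 to 75368579 (plus strand). It had 873 and 853 reads in KO, against 35 reads in WT replicate 1 and 509 reads in WT replicate 2. Both KO libraries were higher than both WT libraries (43.9 and 32.9 CPM, against 4.23 and 24.3 CPM), as 34.3% of all tested genes were, and WT replicate 1 stood far below the rest. With both WT libraries the log2 fold change was 1.41 (SE 0.86, edgeR adjusted p = 0.356), a difference within the spread of the WT pair. It rose by 3.16 (SE 0.25) on the log2 scale against WT replicate 1 and by 0.66 (SE 0.16, edgeR adjusted p = 0.00576) against WT replicate 2. Desmin is also a skeletal muscle gene. The 12 skeletal muscle markers summed to 44.7 and 64.8 CPM in KO, against 9.23 and 28.9 CPM in WT. Most of the KO reads in this sum were from *Ttn*, titin, with 418 and 868 reads in KO, against 51 and 225 in WT. With both WT libraries 0 of 6 tested markers were called. Against WT replicate 2 alone the values were 1.36 for *Ttn*, 0.66 for *Neb*, nebulin, and −0.76 for *Ckm*, muscle creatine kinase. Against WT replicate 1 alone they were 2.14, 1.88 and −3.19. Of 7 tested markers, 5 were positive and 2 negative against WT replicate 1 (median 1.88). Against WT replicate 2 these counts were 4 and 3 (median 0). Of the 12 markers, 1 and 2 were at 0 reads in KO and 4 and 1 in WT (*Myh4*, *Myog*, *Tnnc2* and *Tnni2*), and their part in the *Des* values was not tested.

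*Oxtr* encodes the oxytocin receptor, a G protein-coupled receptor through which oxytocin contracts the uterus and mammary myoepithelium (chromosome 6, 112473684 to 112489808, minus strand). It had 4 and 5 reads in KO, against 0 and 1 reads in WT, and was left out of the tests for its low counts. A count of 0 in WT replicate 1 allows up to 3 reads, or 0.186 CPM of the library total, by the one-sided limit. The 95% exact Poisson intervals, which are two-sided and so reach higher for the same count, overlapped (0.0698 to 0.656 and 0.0809 to 0.581 CPM in KO, up to 0.229 and 0.312 CPM in WT), so no difference was detectable at this depth. Intervals and floors cover counting error only.

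**Figure D2:**
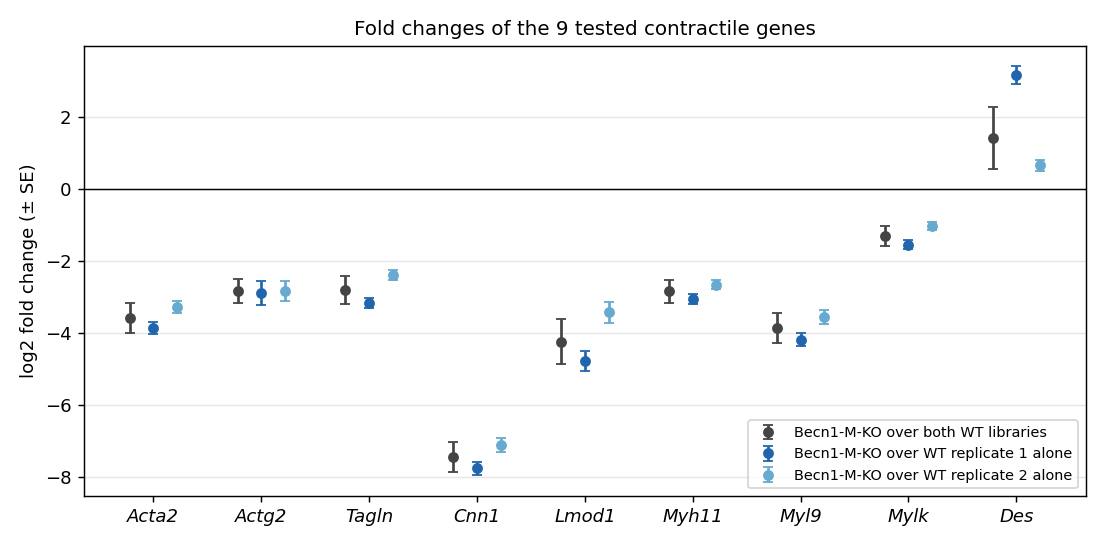
Log2 fold change of KO over WT with its SE (edgeR) for the 9 tested members, against both WT libraries and against each alone. *Cnn1* lies lowest in every comparison (−7.46 against both WT libraries) and *Des* is the only member above 0.

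Within each library, reads of the members can be set against those of *Acta2*, a ratio free of the scaling between libraries. *Myl9* had 19.6 and 18.2 reads per 100 *Acta2* reads in KO, against 23.5 and 22.7 in WT. *Cnn1* had 1.73 and 2.02 reads per 100 *Acta2* reads in KO, against 27.8 and 26.3 in WT. The ratio of *Myl9* thus moved little between groups, while that of *Cnn1* was far lower in KO than in WT. *Mylk* had 176 and 229 reads per 100 *Acta2* reads in KO, against 39.8 and 41.4 in WT. *Des* had 168 and 191 in KO, against 1.36 and 11.5 in WT. For *Myh11* the ratio was 97.1 and 111 in KO and 58.4 and 66.5 in WT, and for *Tagln* 67.6 and 77.1 in KO and 43.7 and 38.6 in WT. *Des* and *Mylk* together gave most member reads in KO (26.3% and 27.7% in replicate 1, 25.9% and 31.0% in replicate 2), against 0.45% and 13.2% in WT replicate 1 and 3.67% and 13.2% in WT replicate 2.

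**Figure D3:**
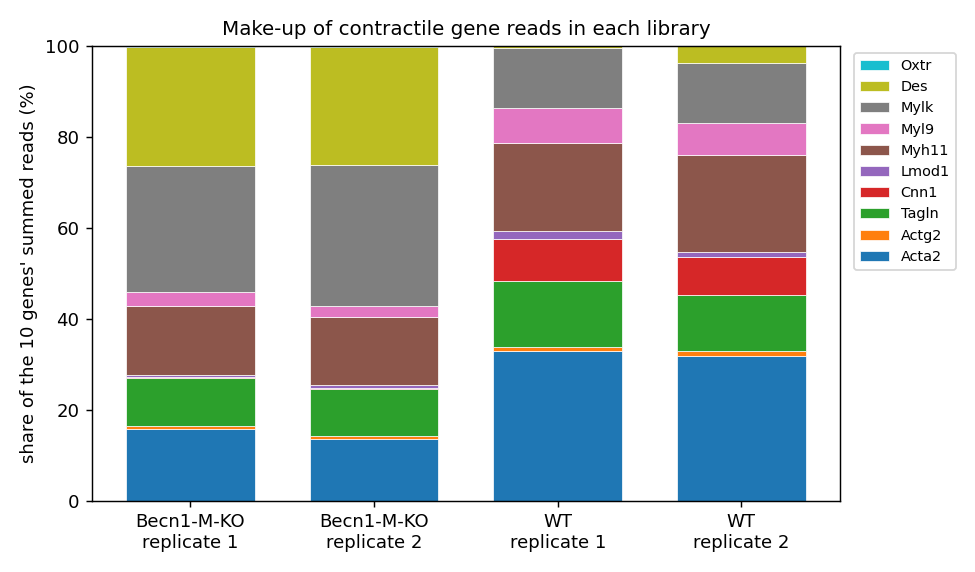
Share (%) of the 10 genes' summed reads held by each gene, 1 bar per library, KO left of WT. Shares of raw reads compare libraries, not genes, since longer transcripts give more reads. *Cnn1* holds 9.19% and 8.39% in WT and 0.271% and 0.273% in KO.

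Coverage columns of the deposited table were read for the same genes. The table lists, for each gene, the bases with low coverage, and its coverage minimum is not stated. No gene with fewer than 20 reads had a base outside that class in any library. *Acta2* had 810 and 663 bases outside the low-coverage class in KO, against 1511 and 1537 bases in WT, of 2196 annotated exon bases in a span of 14247. *Cnn1* had 0 such bases in KO and 1128 and 1214 in WT, of 2736 exon bases. *Myl9* had 0 and 35 in KO, against 912 and 1021 in WT, of 1162 exon bases. For *Myh11*, with a span of 96882 bases of which 7.8% is exonic, they were 1 and 26 in KO and 2620 and 4615 in WT. *Des* had 1650 and 1550 in KO, against 0 in WT replicate 1 and 854 in WT replicate 2. For every member and library these bases numbered fewer than the annotated exon bases. They are not scaled to depth. Covered bases per read, as the median over genes with at least 100 reads, were 76.0 and 73.5 in KO, against 96.6 and 77.9 in WT.

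**Figure D4:**
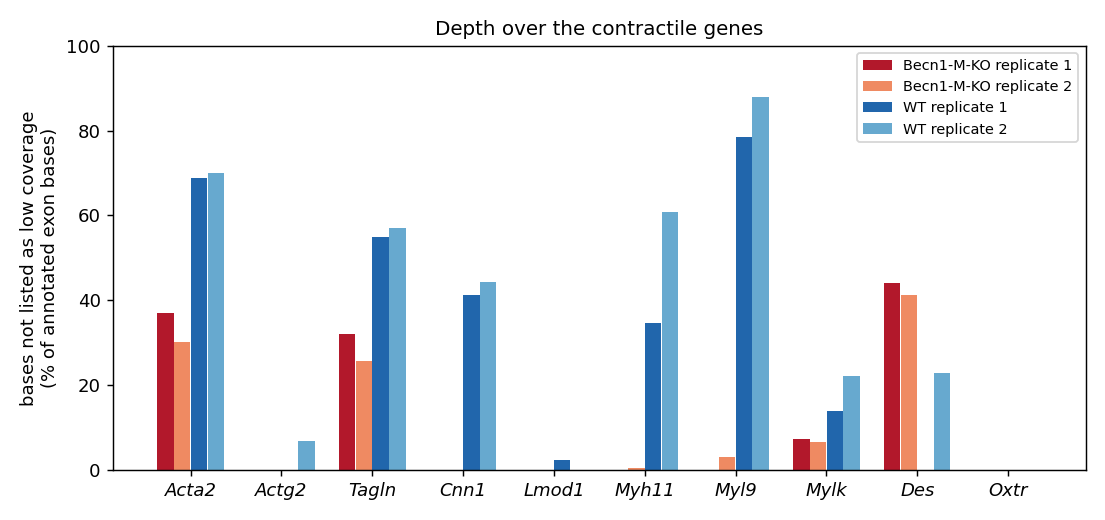
Bases not listed as low coverage, in % of the exon bases that GENCODE M21 annotates, per member and library, KO left of WT. *Myl9* reaches 78.5% and 87.9% in WT against 0% and 3.01% in KO, while *Des* reaches 44.0% and 41.3% in KO.

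Close relatives could share reads with members, since the counting rule is not given. Over GENCODE M21 transcripts the longest stretch identical between *Acta2* and *Actg2* was 29 bases, and between *Acta2* and the cytoskeletal actin *Actg1* 56 bases. *Myh11* shared at most 65 bases with *Myh9* or *Myh10*, and *Cnn1* at most 23 with *Cnn2* or *Cnn3*. The median covered bases per read of every library was longer, but a median over genes does not bound the length of single reads. *Myh11* itself had 62.0 covered bases per read in KO replicate 2. Reads shared with *Myh9* or *Myh10* were therefore possible, and sharing was not excluded in any library. With both WT libraries 0 of 4 abundant relatives were called: *Actb*, *Actg1*, *Myh9* and *Cnn2* had log2 fold changes of 0.95, 0.34, 1 and 0.68, with edgeR adjusted p-values of 0.365 or more. Against WT replicate 1 alone *Actb*, *Myh9* and *Cnn2* rose, by 2.56, 1.96 and 2.52. Of 10 other actin and myosin genes 9 were tested with both WT libraries and 1 passed, *Myh14*, a non-muscle myosin heavy chain gene, which fell by 4.96 (SE 0.41, edgeR adjusted p = 0.0435). Against WT replicate 1 alone 1 of 10 values was negative and 9 were positive, and against WT replicate 2 alone 2 were negative and 8 positive. *Myl12a* and *Myl12b*, non-muscle regulatory light chain genes close to *Myl9*, rose in both of these comparisons, by 0.86 and 1.86 against WT replicate 1 and by 0.66 and 0.69 against WT replicate 2. The cardiac actin gene *Actc1* had 11 and 7 reads in KO, against 1 and 6 in WT. *Acta1*, skeletal actin, had a value of 0.71 (edgeR adjusted p = 0.342). Spans of other genes overlapped 3 members (65 bases of *Tagln* with *Pcsk7*, 368 of *Des* with *Gm15179* and 106 of *Lmod1* with a U6 gene), and the 2 noncoding partners had at most 4 reads in any library.

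In the wider contractile apparatus 1 gene passed in each list. Of 12 thin filament and actin regulation genes, 1 fell and 0 rose with both WT libraries (median −0.14). This gene was *Tpm2*, beta tropomyosin, which had 166 and 138 reads in KO, against 773 and 1130 in WT (log2 fold change −3.43, SE 0.44, edgeR adjusted p = 0.0492). *Tpm1*, alpha tropomyosin, and *Smtn*, smoothelin, had values of −1.05 and −2.24 (edgeR adjusted p = 0.107 and 0.124). *Lmod2*, a leiomodin of striated muscle, had 1 and 0 reads in KO and 12 and 91 in WT, and a fold was not given at those counts. Against WT replicate 1 alone 4 of 11 tested genes of this list had negative values and 7 positive (median 0.45). Against WT replicate 2 alone 9 of 12 were negative and 3 positive (median −0.63). The median of all tested genes was 0.06 and 0 in these comparisons.

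Genes that anchor the contractile filaments had a median of −1.13, and 11 of 12 values were negative. Of these 12, 1 fell over all genes with both WT libraries: *Synm*, synemin, an intermediate filament protein that partners desmin (−2.55, SE 0.25, edgeR adjusted p = 0.0442), with 66 and 76 reads in KO and 148 and 394 in WT. *Nexn* and *Svil*, which encode actin-binding proteins, had values of −2.42 and −1.04 (edgeR adjusted p = 0.0668 and 0.076). In each of the comparisons with WT replicates 1 and 2 alone, 11 of 12 values were negative, with medians of −1.4 and −0.88. Among 16 contraction signalling genes 15 were tested and 1 fell, *Casq2*, a calcium store protein of the sarcoplasmic reticulum (−3.44, SE 0.44, edgeR adjusted p = 0.0492). *Kcnma1* and *Kcnmb1*, the subunits of the calcium-activated potassium channel of smooth muscle, had values of −3.63 and −1.99 (edgeR adjusted p = 0.0918 and 0.153). *Rock2*, a kinase that inhibits myosin phosphatase, had a value of 0.59 (edgeR adjusted p = 0.155) with both WT libraries, and rose by 0.62 and by 0.56 against WT replicates 1 and 2 alone. In these comparisons 8 of 15 and 10 of 16 tested genes of the list had negative values, with medians of −0.26 and −0.05.

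The list of SRF, myocardin and other factors of contractile genes had a median of 0.02, with 1 gene lower and 0 higher. *Srf* had 1193 and 1608 reads in KO, against 451 and 1347 in WT, and its log2 fold change was 0.04 (SE 0.21, edgeR adjusted p = 0.919). *Myocd*, the smooth muscle cofactor myocardin, had 13 and 24 reads in KO, against 8 and 11 in WT (0.17, SE 0.50, edgeR adjusted p = 0.84). *Mkl2*, a myocardin-related cofactor, had a value of −1.19 (SE 0.25, edgeR adjusted p = 0.0831). The 1 of 10 that passed was *Nkx2-3*, a homeobox gene of spleen and gut mesenchyme, with 0 and 3 reads in KO, against 120 and 779 in WT (edgeR adjusted p = 0.0491). The homeobox genes *Meis1* and *Meis2* had values of −4.94 and −3.66 (edgeR adjusted p = 0.0512 and 0.077). Against WT replicates 1 and 2 alone the log2 fold changes were −5.43 and −4.1 for *Meis1* and −4.31 and −2.52 for *Meis2*. For *Mkl2* they were −1.39 and −0.96. Over the list, 5 values were negative and 5 positive against WT replicate 1, and 6 and 4 against WT replicate 2.

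Myoepithelial and other gland cells were measured through markers that are not contractile genes. The 10 myoepithelial and basal epithelial markers had a median of −3.42, and 3 fell with both WT libraries. *Sfn* was level (log2 fold change 0, SE 0.25, edgeR adjusted p = 0.994), and the other values were negative. *Krt14*, a keratin of basal and myoepithelial cells, had 2 and 4 reads in KO, against 702 and 678 in WT (log2 fold change −8.74, SE 0.80, edgeR adjusted p = 0.0441). *Krt17* and *Col17a1*, a basal keratin and a hemidesmosome collagen, had log2 fold changes of −5.33 and −4.4. *Krt5*, the partner of keratin 14, had a value of −6.78 (edgeR adjusted p = 0.0547) and *Trp63*, the p63 factor of basal epithelium, of −2.61 (edgeR adjusted p = 0.0987). The 10 markers summed to 67 and 62 CPM in KO, against 292 and 243 CPM in WT, and none of the 10 was at 0 in any library. Most of the KO reads in this sum were from *Itga6* (392 and 497 reads), *Sfn* (311 and 339) and *Itgb4* (200 and 191). Luminal gland markers moved the same way, with 12 negative values of 12 and 5 that fell, among them *Krt18* (−8.92) and *Epcam* (−4.79). Their sum was 47.5 and 66.3 CPM in KO, against 2450 and 1790 CPM in WT, and *Aqp5*, *Cldn3*, *Foxa1* and *Krt8* were at 0 reads in KO replicate 1. The part of gland tissue in the members' differences was not tested.

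Markers of vessel walls gave values of both signs. Pericytes share *Acta2* and *Des* with smooth muscle. Of 10 pericyte markers 9 were tested, 0 passed with both WT libraries, and the median was 0.37. *Pdgfrb* had 597 and 610 reads in KO, against 92 and 231 in WT (log2 fold change 1.27, SE 0.23, edgeR adjusted p = 0.0721). *Rgs5* had 1946 and 2481 reads in KO, against 216 and 877 in WT (1.51, SE 0.32, edgeR adjusted p = 0.0841). Of the 9 tested markers 4 had negative values, among them *Ndufa4l2* (−1.54), *Cspg4* (−1.39) and *Notch3* (−0.72). The summed pericyte level was 291 and 246 CPM of the library total in KO, against 65.5 and 140 CPM in WT, so it was higher in KO where the summed contractile level was lower (213 and 164 CPM in KO, against 481 and 775 CPM in WT). Of the 9 tested pericyte markers, 5 had positive values and 4 negative against WT replicate 1 alone (median 0.66). Against WT replicate 2 alone 6 were positive and 3 negative (median 0.08). Endothelial markers summed to 512 and 388 CPM in KO, against 103 and 564 CPM in WT, with 0 of 10 called with both WT libraries. Against WT replicate 1 alone 4 endothelial values were negative and 6 positive (median 0.43), and against WT replicate 2 alone 8 and 2 (median −0.49). *Tek* and *Vwf* had log2 fold changes of −1.28 and −1.0 against WT replicate 1, and −1.15 and −1.9 against WT replicate 2. For *Eng* these values were 0.93 and 0.53.

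**Figure D5:**
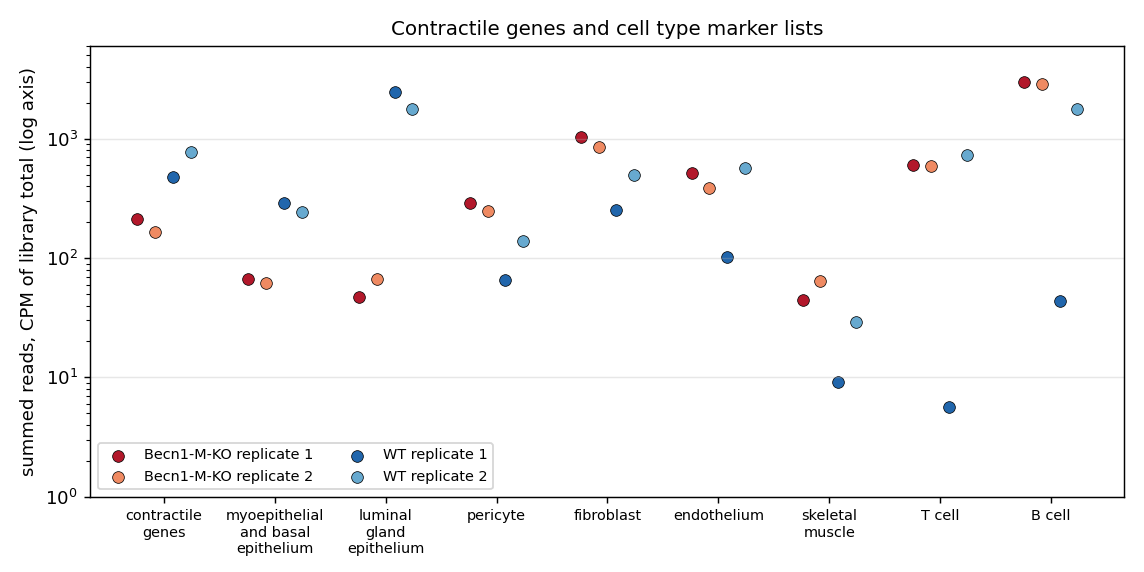
Summed reads of the contractile genes and of 8 cell type marker lists, in CPM of the library total (log axis), 1 point per library, KO left of WT. Contractile, basal epithelial and luminal lists are lower in both KO libraries, pericyte and fibroblast lists are higher, and T cell and B cell sums are low in WT replicate 1 alone.

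The genes most like *Acta2* and *Des* were found by the distance between mean-centred log2 CPM profiles over the 4 libraries, among 10403 genes whose average log2 CPM reached 3, leaving out members, predicted genes and immunoglobulin or T cell receptor segments. Nearest to *Acta2* were *Fzd6* (distance 0.249), *Tpm2* (0.256), *Sox13* (0.289) and *Hspb8* (0.312), which encode a Wnt receptor, beta tropomyosin, an SRY-related factor and a small heat shock protein. *Fzd6* had 51 and 33 reads in KO, against 231 and 407 in WT. Nearest to *Des* were *Pear1* (0.230), *Itprip* (0.237), *Nkg7* (0.270) and *Hmox1* (0.278), and *Hmox1*, haem oxygenase, had 1930 and 2178 reads in KO, against 70 and 1054 in WT. With 4 libraries such distances are a description.

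The authors' deposited table of comparisons, which holds genes with an unadjusted p of at most 0.05, lists 8 of the 10 members, all lower in KO, where it lists 7.95% of all 38087 genes as lower. In the authors' deposited table the log2 fold change is −3.57 for *Acta2*, −8.22 for *Cnn1*, −5.14 for *Lmod1* and −1.35 for *Mylk*. *Des* and *Oxtr* are not among its genes, and the authors' deposited shorter lists of 71 lower and 86 higher genes hold 0 of the 10 members. The authors' deposited normalized log2 values of *Des* are 0.62 and 0.24 in KO, and −2.72 and −0.24 in WT.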

How the data were processed

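The authors deposited whole-number read counts per gene, not normalized, per the file headers. The authors also deposited mean coverage and low-coverage bases per gene, normalized log2 values centred on a median of 0 per gene, and a table of log2 fold changes with unadjusted p-values, per the file headers. Gene lengths equal the whole genomic span. The submitters' processing notes list mm10 and DESeq2 1.62, and no source used here names an aligner or a counting rule.

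Counts were tested over the whole table by the quasi-likelihood test of edgeR 4.0.16 (R 4.3.3; TMM scaling; filterByExpr kept genes by a count of 10 and a summed count of 15). Benjamini-Hochberg adjustment ran over all tested genes, with a threshold of 0.05. SE equals the log2 value over the square root of F. CPM carries TMM factors (1.276 and 1.295 in KO, 0.513 and 1.178 in WT) except in sums over lists, Poisson intervals and floors, which use library totals. The test step was also run on simulated counts. These drew all libraries around a common mean per gene, apart from set changes in KO, so they did not imitate the unlike WT libraries. Named genes are the members, the up to 4 smallest p-values per list and a set of fixed markers. *Actb*, *Actg1*, *Myh9*, *Cnn2*, *Cspg4*, *Notch3*, *Sfn*, *Itga6*, *Itgb4*, *Xist*, *Spt1*, *Dcpp2* and the genes at 0 reads were named after their values were seen. The values of 1 gene of these lists are not reported here. Members and lists were chosen with earlier results of these data known. Alternatives were other scalings, filters and tools, a replicate block and each library left out.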

Additional observations from a re-analysis of the deposited data

How the results depend on the processing

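With both WT libraries, the 5 calls among the members became 0 with library totals alone, 0 with a replicate block and 8 with DESeq2 1.42.0, and ranged from 0 to 9 when 1 library was left out (a lone library is then assumed to vary like the other pair). The cause was not tested. That number was 0 without either KO library, where 7 members had an unadjusted p under 0.05 with a negative sign, and 9 (8 lower, 1 higher) without either WT library. At the other 0 counts, 7 members (library totals) and 8 (block) had such a p, and limma-voom called 6. The labels do not tie the replicate numbers, and deviations of same-numbered libraries correlated at −0.11 across genes. The crossed block, chosen after seeing the data, gave 4 calls. The fits without 1 WT library are the same fits as those against the other WT library alone, so they add no separate check. Counts against each WT library alone stayed within 1.5 times of 9. Library totals moved the median of all genes to 0.60 with both WT libraries, 1.39 against WT replicate 1 and 0.13 against WT replicate 2; relative to that, *Acta2* at −2.87 and *Des* at 1.68 kept their signs. In all comparisons and alternatives run, no tested member changed sign. Over all genes, lower calls were 451, against 1188 with no filter, 2382 with DESeq2, and 0 with library totals, the block or either KO library left out. As a share of tested genes, lower calls were 2.18% in the edgeR test of all 4 libraries, 3.84% with no filter and 10.6% with DESeq2. This share was 1.95% with limma-voom and 3.11% with the crossed block. With 1 library per group (either KO library against 1 WT library) no count of calls could be made. *Oxtr*, with at most 5 reads in a library, is limited by depth.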

Other observations

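Fibroblast genes had values of both signs in KO. *Col1a2*, a fibrillar collagen gene, had 3405 and 3325 reads in KO, against 507 and 725 in WT (log2 fold change 1.65, SE 0.40, edgeR adjusted p = 0.104), and *Pdgfra*, a growth factor receptor of fibroblasts, had 968 and 1102 reads in KO, against 197 and 309 in WT (1.25, edgeR adjusted p = 0.11). *Lum*, lumican, had 33 and 48 reads in KO, against 183 and 242 in WT (−3.25, SE 0.45, edgeR adjusted p = 0.0528), and *Postn*, periostin, had a value of −2.90 (edgeR adjusted p = 0.0539). With both WT libraries 0 of 10 fibroblast genes passed. Against WT replicate 1 alone 8 values were positive and 2 negative (median 0.7), and against WT replicate 2 alone 7 and 3 (median 0.95). The list summed to 1030 and 860 CPM of the library total in KO, against 253 and 496 CPM in WT.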
